A study of Homo sapiens with 6 samples.

Results

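The BH3-only genes BMF, BBC3, PMAIP1, BCL2L11, BIK, BAD, BID and HRK were followed in A375 cells given the BRAF inhibitor vemurafenib. The members were chosen by name: every array probe whose platform annotation gives 1 of these 8 symbols was taken, which gave 18 of 48107 probes. Of the 18 probes, 13 were detected on at least 3 of the 6 arrays and entered the test, and each of the 8 genes kept at least 1 of them. The whole series holds probes for 20044 named genes, of which 11220 entered the test.

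A375 is an established human melanoma line, labelled as coming from a metastasis, which grows on the RAF, MEK and ERK kinase cascade. Each of 3 samples received DMSO, the solvent, and each of 3 others vemurafenib at 3 µM, in both cases for 24 h, and total RNA of each sample was hybridised to 1 Illumina bead array. The labels name no other genetic change or agent in either group, and all samples are of this 1 line. The samples of each group are unnumbered, 1 and 2 in the labels, which do not say whether each came from its own culture. P-values therefore rest on a spread between samples that may be technical.

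BH3-only proteins carry the short BH3 helix of the BCL2 family and start the mitochondrial pathway of apoptosis. They bind the groove of survival proteins such as BCL2, BCL-XL and MCL1, and BIM, PUMA and the cleaved form of BID can also activate the pore-forming proteins BAX and BAK directly. In melanoma cells with mutant BRAF, ERK is known to mark BIM for degradation and to hold BMF low, so that control acts on protein as well as on messenger RNA. Arrays report messenger RNA only.

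After vemurafenib, BMF rose from background to a clear signal, BBC3 (which encodes PUMA) rose 1.82-fold, and PMAIP1 (which encodes NOXA) fell 2.77-fold. The other 5 genes did not pass the test on their brightest probe. At a limma adjusted p under 0.05, 2 of the 8 members were thus higher, where 8.09% of all tested genes were higher, and 1 was lower, where 7.95% of all tested genes were lower. Over both directions 3 of 8 members passed against 16% of all tested genes. The median log2 difference was 0.27 over the 8 members and 0.05 over all genes tested, and the median size of the difference, sign left aside, was 0.82 and 0.35. These counts describe a list of 8 genes and carry no test of their own. The treated values lay wholly above or wholly below the control values for 5 of the 8 members, and for 39.9% of all tested genes. Since these are bulk samples, less RNA per cell and fewer cells of a kind cannot be told apart.

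The promoters of the 3 genes that passed, and of BCL2L11, the most studied member in drug-treated melanoma, are printed to show how differently the sequences around their starts are built. They are RefSeq sequences in the build GRCh38.p14, from 250 bases before to 50 bases after the annotated start, read 5′ to 3′ on the gene's own strand. Capitals mark matches, on either strand, to the forkhead motif GTAAACA, the E-box CACGTG, the AP-1 motif TGANTCA or the GC box GGGCGG.
BMF, chr15:40108830-40109129, minus strand: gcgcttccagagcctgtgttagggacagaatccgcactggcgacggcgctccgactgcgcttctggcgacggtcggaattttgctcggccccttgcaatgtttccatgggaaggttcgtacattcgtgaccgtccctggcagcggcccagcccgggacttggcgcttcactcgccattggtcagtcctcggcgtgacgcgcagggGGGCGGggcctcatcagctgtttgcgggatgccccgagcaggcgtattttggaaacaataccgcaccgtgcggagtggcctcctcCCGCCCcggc
BBC3, chr19:47232618-47232917, minus strand: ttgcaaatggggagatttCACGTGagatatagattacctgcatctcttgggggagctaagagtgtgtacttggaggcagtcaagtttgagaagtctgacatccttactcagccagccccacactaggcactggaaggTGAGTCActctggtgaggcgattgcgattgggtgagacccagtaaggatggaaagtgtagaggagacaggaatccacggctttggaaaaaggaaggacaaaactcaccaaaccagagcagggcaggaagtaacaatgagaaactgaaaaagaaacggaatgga
PMAIP1, chr18:59899746-59900045, plus strand: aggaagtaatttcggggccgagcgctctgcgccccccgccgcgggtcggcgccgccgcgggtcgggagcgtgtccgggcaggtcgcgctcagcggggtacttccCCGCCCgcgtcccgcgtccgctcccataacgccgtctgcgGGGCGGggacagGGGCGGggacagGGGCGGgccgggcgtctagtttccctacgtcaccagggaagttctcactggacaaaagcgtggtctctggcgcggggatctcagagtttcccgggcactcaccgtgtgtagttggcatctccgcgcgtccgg
BCL2L11, chr2:111120664-111120963, plus strand: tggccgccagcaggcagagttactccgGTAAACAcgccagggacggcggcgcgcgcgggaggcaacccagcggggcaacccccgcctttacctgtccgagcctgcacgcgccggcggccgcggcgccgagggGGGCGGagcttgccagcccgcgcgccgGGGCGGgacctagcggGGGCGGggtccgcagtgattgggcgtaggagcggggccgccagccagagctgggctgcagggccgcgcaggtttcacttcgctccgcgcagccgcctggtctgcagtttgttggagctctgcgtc
The BMF promoter shown, the first of 2 in the table, held a GC box on each side of the start and none of the other motifs. The second BMF promoter held no match to any of the motifs and was 50.3% G and C. The BBC3 promoter held 1 E-box and 1 AP-1 motif and no GC box, and its base composition was 48.0% G and C, against 65.0% for the BMF promoter shown. The PMAIP1 promoter, at 71.3% G and C, held 4 GC boxes, and the BCL2L11 promoter, at 74.7%, held 3 GC boxes and the forkhead motif.

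Promoter entries were found for 7 of the 8 members, 13 promoters in all. The forkhead motif was in 1 of these 13 promoters and in 3.42% of all 35116 promoters of the table, the E-box in 3 and 7.26%, the AP-1 motif in 1 and 7.71%, and the GC box in 10 and 45.0%. Of the 13 promoters BID supplies 5 and BAD 2, and some of these overlap, so that the same site is counted in more than 1 promoter. No motif contains another, and a match describes the letters only.

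The arrays were alike in depth of signal. Median intensities lay between 91 and 94.5 units against an inferred background of 85.0 to 88.3, and 38.2% to 41.7% of probes were detected per array. Genes that ERK drives fell with the drug: DUSP6, a phosphatase that switches ERK off, fell 8.92-fold (limma adjusted p = 0.00132), and SPRY2, a feedback inhibitor, and CCND1, cyclin D1, fell as well (log2 differences of -2.77 for both, limma adjusted p = 0.00123 and 0.00206). BRAF, the drug's target, is not analysed here. Of 7 melanocyte markers with a probe, MITF and SOX10 were kept, and TYR, TYRP1 and S100B were detected on 0 arrays. The remaining markers with a probe were detected on some arrays but on too few to be kept. Among other cell types, PTPRC, CD3E, KRT5, KRT1, CDH1, CDH5 and KDR were detected on 0 arrays, while CD14 and LYZ of the leukocyte list and KRT14 and KRT10 of the keratinocyte list were kept. The summed intensity was 381 to 411 in DMSO and 359 to 423 in vemurafenib for the leukocyte list, and 1340 to 1840 and 1560 to 1920 for the keratinocyte list, and limma called 0 markers of either. Of 6 fibroblast markers 3 were kept, and their list moved with the drug: its summed intensity was 549 to 592 in DMSO and 610 to 807 in vemurafenib, and DCN passed the test (log2 difference 0.99, limma adjusted p = 0.0231), while COL1A1 (0.63, limma adjusted p = 0.0697) and LUM (1.16, limma adjusted p = 0.0694) did not. Its part in the results was not tested.

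Levels below are normalised log2 intensities, on which the added offset makes 4 the lowest possible value, and SD and SE are over n = 3 samples per group. Values are given for the unnumbered sample first, then for samples 1 and 2.

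BMF encodes a protein that is held at the cytoskeleton by dynein light chain and binds survival proteins once released. On probe ILMN_1695354 its log2 intensity was 4.17, 4.22 and 4.18 in DMSO and 7.29, 7.42 and 6.70 in vemurafenib. The controls lay at the floor of the scale and all treated samples lay far above them. In the deposited intensities, the 3 DMSO samples read 78.5, 81.6 and 79.9 units, each below its array's background mean, and the 3 vemurafenib samples read 255, 238 and 171. The probe was detected on 0 of 3 control arrays and on 3 of 3 treated arrays. With each control set to its array's lowest signal among detected probes, BMF was 6.63-fold higher after vemurafenib. Some undetected probes read above that floor, such as BID probe ILMN_2259495 at 4.92 in DMSO 2. The fold is therefore an estimate tied to this processing and not a strict lower bound. The log2 difference was 2.95 ± 0.21 (SE, limma adjusted p = 7.93e-04), and the difference between equally labelled samples was 3.13, 3.20 and 2.53. The probe entered the test only through its detection on the treated arrays. With no filter on dim probes its limma adjusted p was 0.0045.

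A second BMF probe, ILMN_2308338, which the annotation ties to another transcript, read 4.26, 4.23 and 4.39 in DMSO and 7.02, 7.07 and 6.76 in vemurafenib. With the controls set to the same floor this is a 5.80-fold rise (log2 difference 2.65 ± 0.16, SE, limma adjusted p = 5.49e-04). It too entered the test only through its detection on the treated arrays. The rises of these probes differed by 0.30 on the log2 scale (exact two-sided permutation p = 0.2, in a design that cannot go below 0.1). The other BMF probes, ILMN_1787794 and ILMN_1810239, were detected on 0 arrays, with means of 4.29 ± 0.03 and 4.16 ± 0.03 in DMSO and 4.42 ± 0.28 and 4.20 ± 0.04 in vemurafenib (SD). ILMN_1787794 is annotated to the same transcript as the brightest probe, so what is shown rests on 2 of 4 probes.

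**Figure D1:**
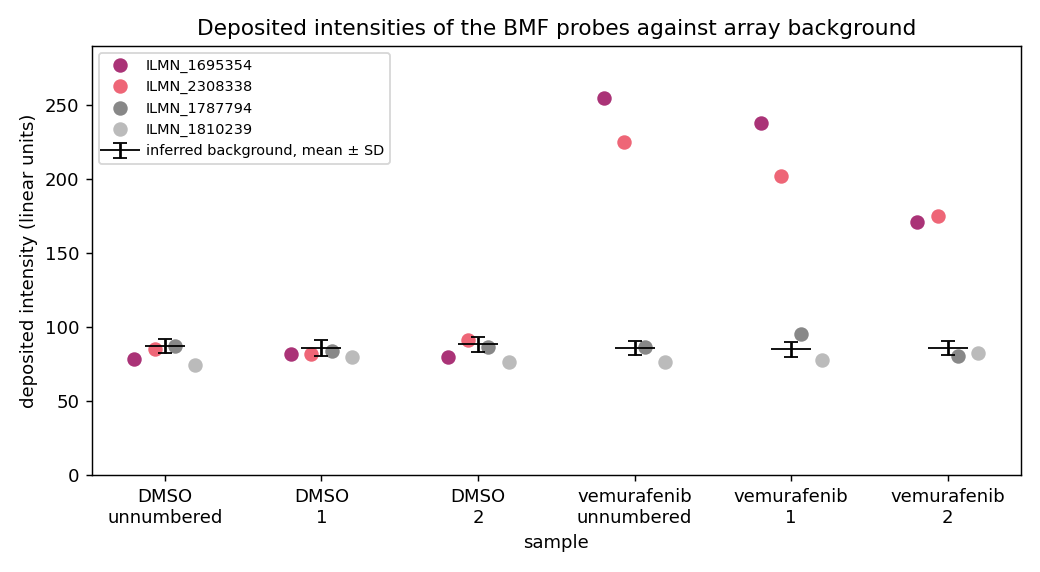
Deposited intensity on a linear scale (vertical axis) of the 4 BMF probes in each of the 6 samples (horizontal axis), with the inferred background of each array as mean ± SD. Probes ILMN_1695354 and ILMN_2308338 sit at background in the 3 DMSO samples and between 171 and 255 in the 3 vemurafenib samples, while the other probes stay at background throughout.

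Among all 11220 genes, 191 (1.70%) were detected on 0 of 3 control arrays and on 3 of 3 treated arrays, as BMF was, and 52 (0.463%) showed the opposite. The BMF call held in all 17 processing alternatives. Its size did not: with an offset of 50 the log2 difference was 1.75, without background correction 1.42, and on the deposited log2 values 1.43.

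BBC3 encodes PUMA, which binds all survival proteins. Its single probe, ILMN_1729645, read 6.07, 6.17 and 5.84 in DMSO and 6.69, 7.04 and 6.94 in vemurafenib. The means were 6.03 ± 0.17 and 6.89 ± 0.18 (SD), and the lowest treated sample lay above the highest control. The log2 difference was 0.86 ± 0.17 (SE, limma adjusted p = 0.0210), a 1.82-fold rise. Equally labelled samples differed by 0.62, 0.87 and 1.10. The call was lost without the unnumbered DMSO sample (limma adjusted p = 0.0673), DMSO 1 (0.0536), the unnumbered vemurafenib sample (0.0574) or vemurafenib 1 (0.0870), with log2 differences between 0.79 and 0.96. Without background correction the log2 difference was 0.48 (limma adjusted p = 0.0215).

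PMAIP1 encodes NOXA, a selective binder of MCL1. Probe ILMN_2098446 read 9.11, 8.83 and 8.30 in DMSO and 7.43, 7.48 and 6.91 in vemurafenib. All treated samples lay below all controls, and the sample numbered 2 was the lowest of each group. The mean went from 8.74 ± 0.41 to 7.27 ± 0.31 (SD), a log2 difference of -1.47 ± 0.26 (SE, limma adjusted p = 0.0140) or a 2.77-fold fall. Equally labelled samples differed by -1.68, -1.35 and -1.38.

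The second PMAIP1 probe, ILMN_1689525, read 6.13, 5.86 and 6.22 in DMSO and 5.52, 5.09 and 4.74 in vemurafenib, a log2 difference of -0.96 ± 0.23 (SE, limma adjusted p = 0.0330). Both probes fell, and the log2 differences were 0.51 apart (exact two-sided permutation p = 0.3, in a design that cannot go below 0.1). The call of the brighter probe was lost without the unnumbered DMSO sample (limma adjusted p = 0.0542) or the unnumbered vemurafenib sample (0.0561).

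BCL2L11 encodes BIM, the activator whose protein ERK controls. Its kept probe, ILMN_2359627, read 5.16, 5.08 and 5.77 in DMSO and 5.62, 5.74 and 5.42 in vemurafenib, so the groups overlapped. The log2 difference was 0.26 ± 0.22 (SE, limma adjusted p = 0.469). The unnumbered pair and pair 1 were higher after the drug, by 0.46 and 0.66, and pair 2 was lower, with a difference of -0.35. Without both samples numbered 2 the difference was 0.56 and passed (limma adjusted p = 0.0341), in a fit where 32.5% of all genes passed. Probe ILMN_1766541 was detected on 0 of 3 DMSO and 2 of 3 vemurafenib arrays, and ILMN_1774997 on 0 and 1, and neither was tested.

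**Figure D2:**
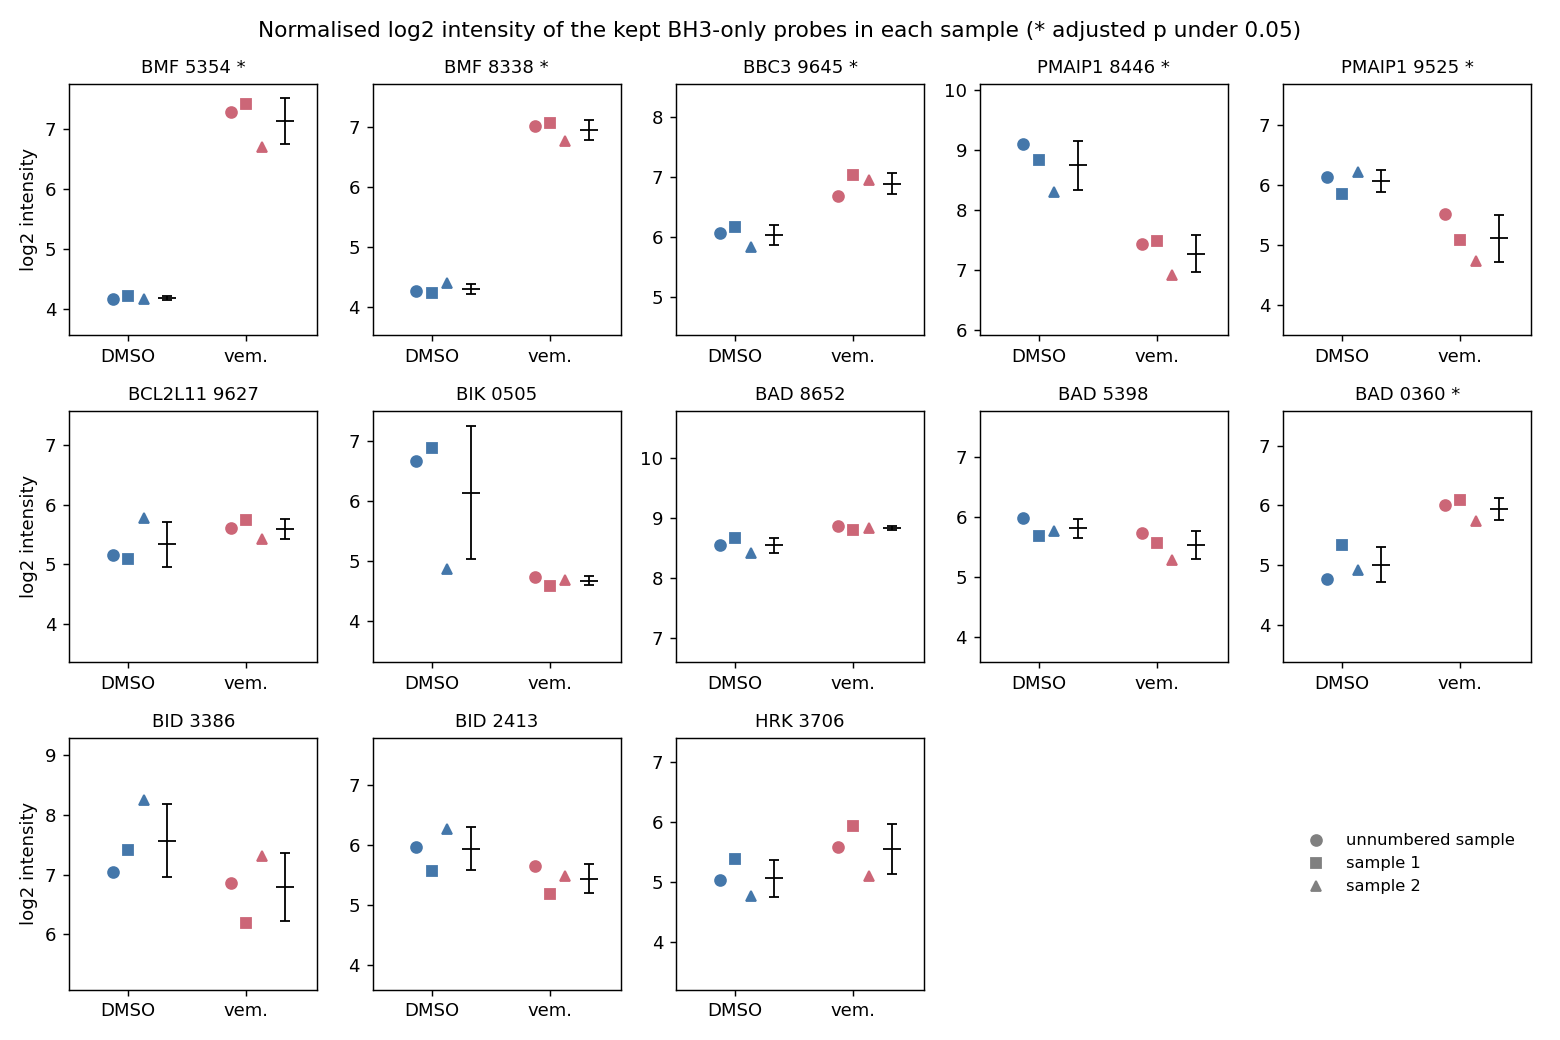
Normalised log2 intensity (vertical axis) of the 13 kept BH3-only probes in the DMSO and vemurafenib samples, each panel titled with the gene and the last digits of the probe and spanning the same range of log2 units. Symbols mark the sample label, and bars give mean ± SD of 3 samples; the groups separate for both BMF probes, BBC3 and both PMAIP1 probes and overlap for BCL2L11 and HRK.

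BIK encodes a BH3-only protein of the endoplasmic reticulum. Its probe, ILMN_1770505, read 6.67, 6.89 and 4.87 in DMSO and 4.74, 4.59 and 4.68 in vemurafenib. All treated samples lay below all controls, but DMSO 2 stood apart from the other controls and lay only slightly above the treated samples. The mean was 6.14 ± 1.10 in DMSO and 4.67 ± 0.08 in vemurafenib (SD), and the log2 difference of -1.47 ± 0.48 (SE) did not pass (limma adjusted p = 0.0773). In deposited intensities the DMSO samples read 167, 178 and 102 units and the vemurafenib samples 98.1, 92.6 and 94.9, and each group was detected on 2 of 3 arrays. Equally labelled samples differed by -1.92, -2.30 and -0.19. Without DMSO 2 the log2 difference was -2.11 (limma adjusted p = 0.00286), in a fit where 1166 of 11220 genes passed. This was the only 1 of the 6 fits with 1 array left out in which BIK passed (limma adjusted p up to 0.199 otherwise).

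The samples numbered 2 also stood apart elsewhere. Over all kept probes DMSO 2 correlated with each of the other controls at 0.971, where the unnumbered DMSO sample and DMSO 1 correlated at 0.991. Against the mean of the other controls, DMSO 2 differed by -1.90 for BIK, 1.01 for BID, -0.67 for PMAIP1 and 0.65 for BCL2L11 on the log2 scale, with a median size of 0.31 over all genes. Vemurafenib 2 differed from the other treated samples by 0.79 for BID, -0.65 for BMF and -0.66 for HRK, with a median size of 0.30. BNIP3 and BNIP3L, hypoxia-induced relatives of the family, differed by -1.47 and -1.54 in DMSO 2 and by -0.85 and -0.88 in vemurafenib 2. The part of this in the results was not tested.

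**Figure D3:**
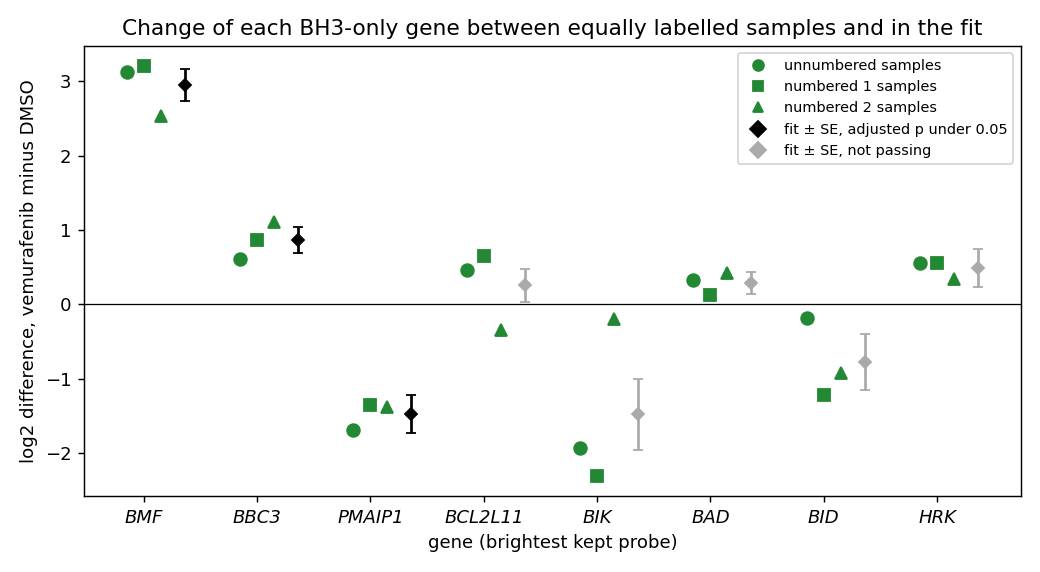
Log2 difference of vemurafenib minus DMSO (vertical axis) for the brightest kept probe of each member, between equally labelled samples (symbols) and in the fit over all samples (diamonds with SE, black where the adjusted p is under 0.05). All pairs lie on one side of 0 for every member except BCL2L11, whose pair numbered 2 is at -0.35, and the pair numbered 2 of BIK is at -0.19.

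BAD encodes a BH3-only protein that survival kinases hold inactive by phosphorylation, bound to 14-3-3 proteins. Its brightest probe, ILMN_1738652, read 8.54, 8.67 and 8.41 in DMSO and 8.86, 8.80 and 8.83 in vemurafenib, without overlap, and its log2 difference of 0.29 ± 0.15 (SE) did not pass (limma adjusted p = 0.233). Probe ILMN_1685398 read 5.99, 5.69 and 5.76 in DMSO and 5.74, 5.57 and 5.28 in vemurafenib, a difference of -0.28 ± 0.18 (SE, limma adjusted p = 0.329). Probe ILMN_1720360 read 4.78, 5.34 and 4.92 in DMSO and 6.01, 6.09 and 5.74 in vemurafenib and rose by 0.93 ± 0.20 (SE, limma adjusted p = 0.0250). Of the 3 BAD probes, 1 rose and 2 did not pass. Their differences from each other were 0.57, 0.64 and 1.21 log2 units in size, with no overlap between groups in any of the 3 comparisons. Each had an exact two-sided permutation p = 0.1, the smallest that 3 samples against 3 allow, or 0.2 after adjustment over the 6 probe pairs compared.

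BID encodes the protein that caspase-8 cuts to link death receptors to mitochondria. Its brightest probe, ILMN_1763386, read 7.05, 7.41 and 8.24 in DMSO and 6.87, 6.19 and 7.32 in vemurafenib, with overlap, and a log2 difference of -0.77 ± 0.37 (SE, limma adjusted p = 0.197). Probe ILMN_2372413 read 5.97, 5.56 and 6.28 in DMSO and 5.66, 5.19 and 5.48 in vemurafenib, a difference of -0.50 ± 0.23 (SE, limma adjusted p = 0.179). A further probe, ILMN_2259495, was detected on 1 array of each group and was not tested.

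HRK encodes a BH3-only protein best known from neurons. Its probe, ILMN_2193706, read 5.02, 5.38 and 4.76 in DMSO and 5.59, 5.93 and 5.10 in vemurafenib, with overlapping groups. The log2 difference was 0.49 ± 0.26 (SE, limma adjusted p = 0.239), and the probe was detected on 2 of 3 control and 3 of 3 treated arrays.

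Over the 13 kept probes, 4 rose, 2 fell and 7 did not pass, where 14.5% of all kept probes passed in either direction. Treated values lay wholly above the controls for 5 of these probes and wholly below for 3, against 36.6% of all kept probes for both together. With the sample label as a block, 3 members were higher (BMF, BBC3 and HRK) and 3 were lower (PMAIP1, BIK and BID), in a fit where 16.2% of all genes were higher and 13.6% lower. HRK then had a limma adjusted p = 0.0496, BIK of 0.0327 and BID of 0.0419. BCL2L11 and BAD did not pass in that fit.

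The genes whose profile over the 6 arrays lay nearest to a passing member, each centred on its DMSO mean, were found by Euclidean distance over 10974 genes. For BMF they were COL9A2, PPP2R2B and ANGPTL7, at 0.722, 0.726 and 0.732 log2 units. For BBC3 they were RBM47, AKR1B15 and ZNF490, at 0.147, 0.161 and 0.247. For PMAIP1 they were FOXD1, STC2 and SH2D5, at 0.293, 0.339 and 0.355. This distance grows with the size of a change, so it is not compared between members.

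The survival proteins are the direct binding partners of the BH3-only proteins. Of 6 survival genes 4 were tested, of which 3 fell, 0 rose and 1 did not pass, with a median log2 difference of -0.84. Here and for the lists that follow, the shares over all tested genes were 8.09% higher and 7.95% lower, with a median of 0.05. BCL2 fell 2.34-fold (-1.23 ± 0.22, SE, limma adjusted p = 0.0159), MCL1, the partner of NOXA, fell 1.88-fold (-0.91 ± 0.16, SE, limma adjusted p = 0.0140), and BCL2L1, which encodes BCL-XL, fell 1.70-fold (-0.77 ± 0.19, SE, limma adjusted p = 0.0385). BCL2L2 had a log2 difference of 0.31 (limma adjusted p = 0.182), and BCL2A1 and BCL2L10 kept no probe. The BCL2 call was lost without the unnumbered DMSO sample (limma adjusted p = 0.0595) or the unnumbered vemurafenib sample (0.0714), and without background correction its log2 difference was -0.51. The MCL1 call was lost without the unnumbered DMSO sample (limma adjusted p = 0.0584), DMSO 1 (0.0501) or vemurafenib 1 (0.0632). The BCL2L1 call held only without DMSO 2 or vemurafenib 2 among the 6 fits with 1 array left out, and the limma adjusted p in the other 4 reached 0.135 (without vemurafenib 1). It was also lost with no filter on dim probes (limma adjusted p = 0.0701). The second probes of MCL1 (-0.57, limma adjusted p = 0.0622) and BCL2L1 (-0.61, limma adjusted p = 0.0534) did not pass, and that of BCL2 did (-0.98, limma adjusted p = 0.0358).

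**Figure D4:**
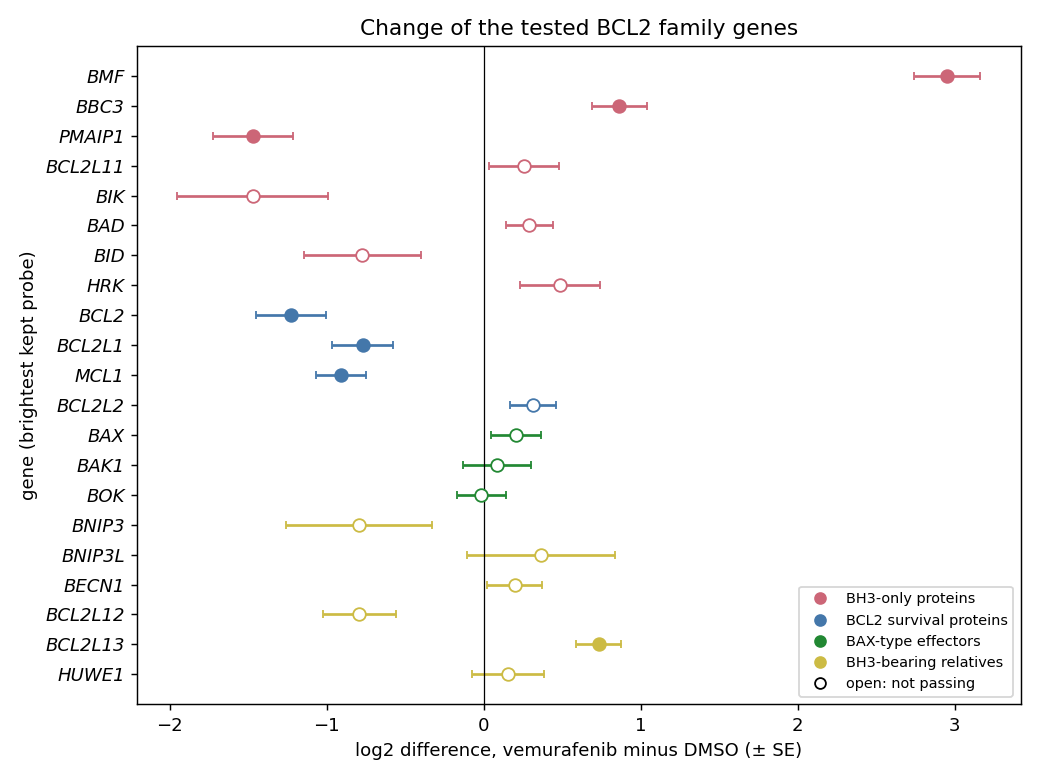
Log2 difference of vemurafenib minus DMSO with SE (horizontal axis) for the brightest kept probe of each tested BCL2 family gene (vertical axis), coloured by role, filled where the adjusted p is under 0.05. BMF lies farthest to the right, at 2.95, and PMAIP1 and BIK share the lowest value, -1.47, with BIK open.

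Of the 3 pore-forming effectors, limma called 0 on their brightest probes, and 0 had an unadjusted p under 0.05 there. BAX differed by 0.21 (limma adjusted p = 0.414), BAK1 by 0.08 (0.828) and BOK by -0.01 (0.962), with a median of 0.08. A second BAX probe went the other way and did not pass (-0.50, limma adjusted p = 0.113). Of 7 relatives that carry a BH3-like stretch 6 were tested, and BCL2L13, a mitochondrial protein, rose (log2 difference 0.73 ± 0.14, SE, limma adjusted p = 0.0195), while 5 did not pass, with a median log2 difference of 0.17. Among fits with 1 array left out, that call held without DMSO 2 or vemurafenib 2, and the limma adjusted p in the other 4 reached 0.0798 (without the unnumbered vemurafenib sample). BCL2L12 did not pass on its brightest probe (log2 difference -0.79, limma adjusted p = 0.0576). Of its other probes, ILMN_1752953 passed as lower (-0.87, limma adjusted p = 0.0434) and ILMN_1731193 did not pass (-0.33, 0.505). With the sample label as a block 2 of the 6 relatives were also lower, where 13.6% of all genes were.

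Of 13 apoptosome and caspase genes, 10 were tested: 1 fell, 0 rose and 9 did not pass, with a median log2 difference of 0.02. BIRC5, which encodes survivin, a protein also needed in mitosis, fell 4.39-fold (limma adjusted p = 0.0372), a call that among the 6 fits with 1 array left out held only without vemurafenib 2 (limma adjusted p = 6.34e-04, up to 0.129 otherwise), and that was lost with no filter on dim probes (0.118). Of 10 death receptor genes 8 were tested, and TNFRSF10A, a receptor of the ligand TRAIL, fell 3.28-fold (-1.72 ± 0.23, SE, limma adjusted p = 0.00632), which held in all 6 such fits. Without background correction its log2 difference was -0.92. The other 7 did not pass, none of the 8 rose, and the median log2 difference was 0.12. With the sample label as a block, 2 of the 10 caspase-list genes and 2 of the 8 death receptor genes were higher, where 16.2% of all genes were.

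Of 14 transcription factors and cofactors known to act on BH3-only genes 12 were tested, of which 3 rose, 2 fell and 7 did not pass, with a median log2 difference of 0.35. MYC, named among inducers of BIM, fell, with a log2 difference of -2.70 (limma adjusted p = 0.00127). FOXO4 and FOXO3, forkhead factors that act on BCL2L11 and BBC3, rose by 1.12 ± 0.26 and 0.89 ± 0.24 (SE, limma adjusted p = 0.0290 and 0.0432), and MITF, the melanocyte lineage factor, rose by 0.75 ± 0.18 (SE, limma adjusted p = 0.0333). TRIB3, a stress-induced pseudokinase named here to complete the count after its value was seen, fell, with a log2 difference of -0.71 (limma adjusted p = 0.0335). The call of MYC held in all 6 fits with 1 array left out, and those of FOXO4, FOXO3 and MITF only without vemurafenib 2 (limma adjusted p = 0.0182, 0.0210 and 0.0461). With no filter on dim probes 0 factors were higher by limma (adjusted p = 0.0752 for FOXO4, 0.0982 for FOXO3 and 0.0551 for MITF). Without background correction the log2 difference of MITF was 0.41. A second FOXO3 probe did not pass (0.33, limma adjusted p = 0.244).

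Of 19 proteins that tether or phosphorylate BH3-only proteins 16 were tested and limma called 0, with 4 at an unadjusted p under 0.05 and a median log2 difference of -0.10. DYNLL1, a dynein light chain, differed by -0.06 (limma adjusted p = 0.824), and YWHAQ, a 14-3-3 protein of the kind that binds BAD, by -0.10 (0.702). The other dynein light chain of the list, DYNLL2, is named here after its value was seen. It differed by -0.71 and did not pass (limma adjusted p = 0.0529). With the sample label as a block 3 of the 16 were lower, where 13.6% of all genes were.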

How the data were processed

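The authors deposited, for each of 48107 probes on 6 bead arrays, a signal intensity on a linear scale, which the values show to be neither background-corrected nor normalized between arrays, and, per the file headers, a p-value of detection, with no record of how it was computed. A deposited table of log2 values of the same arrays, with method unstated, differed by at most 0.0513 from log2 quantile-normalized intensities with no background correction; each array has a median of 6.54 there, and it served as an alternative.

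From the intensities, 4 probes with a missing value were left out. The background (SD 4.54 to 5.36 units) was modelled by normexp in limma 3.58.1 (R 4.3.3), which takes the level of the negative controls from the detection p-values. After an offset of 16 was added, quantile normalization and log2 followed. Differences of dim genes are compressed by this. The 18747 probes detected (p under 0.01) on 3 or more of 6 arrays were tested with lmFit and eBayes, Benjamini-Hochberg adjustment over all of them and a threshold of 0.05. All adjusted p-values of genes are from limma. A gene was represented by its kept probe with the highest mean. Where a group was detected on 0 arrays, the fold used, for that group, the higher of each array's lowest signal among detected probes and the probe's own. Symbols came from the platform annotation: 30113 probes had 1 symbol, 8 several and 17986 none, and 30074 matched a current gene table, which changed 0 symbols.

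The blocked fit took equal labels as pairs, which the labels themselves do not state. Deviations of equally labelled samples correlated at r = 0.19, 0.35 and 0.52 for the unnumbered pair and pairs 1 and 2. The unnumbered and 1 samples correlated as much across labels (0.26 and 0.35), so the data set only pair 2 apart. The labels give no batch. The scripts were tested on simulated data. The members, lists and tests were chosen with earlier results of these data known. Named genes are every member probe, up to 4 passing genes with the largest change per list or the 2 most abundant if none passed, the 3 nearest profiles of each passing member, and drug checks.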

Additional observations from a re-analysis of the deposited data

How the results depend on the processing

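The direction of each of the 8 members' brightest probe stayed the same in every alternative run: median centring, an offset of 50, no background correction, no filter on dim probes, detection on all 3 arrays of a group, the deposited log2 values, trend and robust variance, the mean of kept probes, the replicate block, and samples left out or averaged. BIK could not be tested where detection on all 3 arrays of a group was required. BMF passed in 17 of 17 alternatives (log2 differences 1.42 to 3.17, limma adjusted p up to 0.0416), PMAIP1 in 14 and BBC3 in 12. With the replicate block the counts over all genes were 1813 higher and 1531 lower, 3 members were lower, and BIK (-1.47, limma adjusted p = 0.0327), BID (-0.77, 0.0419) and HRK (0.49, 0.0496) passed; the block changed no other member's call. Without both samples numbered 2 the counts were 1964 and 1683, 2 members were lower, and BCL2L11 (0.56) and BIK (-2.11) passed. With the unnumbered and 1 samples averaged they were 14 and 12, 1 member was higher and 0 lower by limma, and BBC3 (0.92, limma adjusted p = 0.169) and PMAIP1 (-1.45, 0.154) no longer passed, nor did the called genes BCL2, MCL1, BCL2L1, BCL2L13, BIRC5, TNFRSF10A, MYC, FOXO4, FOXO3, MITF, DUSP6, SPRY2 and CCND1 (limma adjusted p = 0.0514 to 0.243); 2219 genes had an unadjusted p under 0.05 there. Without a filter they were 497 and 447, over more genes. Median centring gave 60.8% higher among called genes, against 50.4%. Leaving out 1 array at a time gave 146 to 1408 genes higher and 160 to 1263 lower, 1 to 2 members higher and 0 to 2 lower, and log2 differences of 0.77 to 0.96 for BBC3, -1.69 to -1.29 for PMAIP1 and -2.11 to -1.10 for BIK. Signals of BMF in controls, BIK, HRK and BCL2L11 lie close to background, which limits their precision.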
